A study of Mus musculus with 5 samples.

Results

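The genes described here are 9 chemokines and chemokine receptors that direct lymphocytes: the ligands Cxcl9, Cxcl10, Cxcl13, Cxcl16 and Cxcl12, and the receptors Cxcr3, Cxcr5, Cxcr6 and Cxcr4. They were chosen by symbol, and each symbol matched 1 of the 55450 genes in the deposited matrices, so 9 of 55450 genes were followed. The study took single cells from the cortex of C57BL/6J mice and profiled them with 10x Genomics 3′ version 3 chemistry in 5 libraries. One library came from sham-operated mice and 1 each from the injury site 1, 3, 7 and 14 days after traumatic brain injury (TBI). No other genotype, allele or agent is named, the title of the sham library gives no site, and no source used here states how many mice were pooled for a library. With 1 library per group there is no replicate, so no test was run, and every interval below is a 95% interval of counting error only.

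Chemokines are small secreted proteins that guide white blood cells through receptors coupled to G proteins. Cxcl9 and Cxcl10 are induced by interferons and bind Cxcr3 on activated T and NK cells. Cxcl16 is made as a membrane protein that can be shed and binds Cxcr6, a receptor of effector and tissue-resident T cells and innate lymphocytes. Cxcl13 binds Cxcr5 and draws B cells and follicular helper T cells into lymphoid follicles. Cxcl12 binds Cxcr4 and the scavenging receptor Ackr3. It is made by brain endothelium among other cells, holds Cxcr4-bearing leukocytes at the vessel wall, and guides neural progenitors.

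All 9 genes are protein coding. On GRCm38, Cxcl9 lies at chr5:92321347-92328079 on the minus strand and Cxcl10 at chr5:92346638-92348889, also on the minus strand, 18.6 kb away. Cxcl13 lies on the same chromosome at chr5:95956951-95961068 on the plus strand. Cxcl16 is at chr11:70453983-70459984 (minus), Cxcl12 at chr6:117168535-117181367 (plus), Cxcr3 at chrX:101731535-101734269 (minus), Cxcr5 at chr9:44511787-44561877 (minus), Cxcr6 at chr9:123806475-123811760 (plus) and Cxcr4 at chr1:128588199-128592293 (minus).

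The 250 bases before the start of the 3 ligands that stood higher in microglia-like cells at day 14 and that lie on chromosome 5 are shown, because these 3 genes followed different time courses. They come from RefSeq on GRCm38.p6, which held promoters for 7 of the 9 genes, and are printed 5′ to 3′ on the strand of the gene, with the matches to the searched motifs in capitals.
Cxcl10, chr5:92348890-92349139, minus strand: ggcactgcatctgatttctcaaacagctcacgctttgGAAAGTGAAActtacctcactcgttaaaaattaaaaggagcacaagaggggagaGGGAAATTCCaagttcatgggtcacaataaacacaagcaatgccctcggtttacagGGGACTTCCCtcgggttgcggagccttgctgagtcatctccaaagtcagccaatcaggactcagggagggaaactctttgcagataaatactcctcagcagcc
Cxcl9, chr5:92328080-92328329, minus strand: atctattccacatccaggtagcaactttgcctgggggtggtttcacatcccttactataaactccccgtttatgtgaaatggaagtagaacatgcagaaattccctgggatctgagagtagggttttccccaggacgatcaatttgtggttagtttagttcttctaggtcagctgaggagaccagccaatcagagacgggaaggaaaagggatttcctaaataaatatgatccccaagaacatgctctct
Cxcl13, chr5:95956689-95956938, plus strand: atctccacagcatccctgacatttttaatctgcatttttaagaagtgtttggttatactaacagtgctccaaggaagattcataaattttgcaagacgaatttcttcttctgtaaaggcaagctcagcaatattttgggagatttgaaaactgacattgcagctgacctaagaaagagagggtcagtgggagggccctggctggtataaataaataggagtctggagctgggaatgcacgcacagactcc
In capitals, the Cxcl10 window holds an interferon-stimulated response element, searched as 2 copies of GAAA with any 2 bases between them, 213 to 204 bases before the start, and 2 matches to the NF-kB consensus, at 159 to 150 and at 103 to 94 bases before it. Both strands were searched, also for the gamma-activated sequence TTCNNNGAA and the hypoxia core ACGTG, and the matches do not overlap each other. The other 6 promoters held no match to any of the 4 motifs within these 250 bases. Of 32851 promoters of the same length, 2.98% held the interferon-stimulated response element, 3.90% the NF-kB consensus, 7.02% the gamma-activated sequence and 16.6% the hypoxia core. A match is a description of letters and not of bound factor.

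The libraries held 11571, 12724, 9895, 14159 and 12225 barcodes from sham to day 14, where the labels' protocols state that 5188 to 11934 cells were loaded per sample, and 3 libraries held more barcodes than the highest of these numbers. After filters and removal of called doublets, 55321 of 60574 barcodes were kept (91.3%). The median UMIs per barcode were 773, 1755.5, 3256, 6581 and 8558, so depth moved with the day, and 383 barcodes occurred in 2 or more libraries. At day 7, 12.7% of barcodes were over the mitochondrial limit, and at most 0.499% in the others. Cells were clustered and named by marker genes that excluded these 9 genes, and a name ending in -like stands for likeness to those markers. T or NK cell-like cells numbered 16, 32, 141, 373 and 1868, which was 0.152%, 0.272%, 1.48%, 3.12% and 16.2% (15.5% to 16.9%) of kept cells. No cluster of all cells was named B cell-like. Plasma cell-like cells numbered 3, 11, 8, 8 and 146 from sham to day 14, or 0.028% of kept cells in sham and 1.26% at day 14. When the plasma cell-like cluster was clustered again, a step chosen after seeing the data, 29 B cell-like cells with 14 of 17 B cell markers appeared, 13 of them at day 14. Its other sub-clusters stayed unnamed, among them 39 cells led by Siglech, Cox6a2 and Irf8. Microglia-like cells numbered 4506, 3978, 2908, 5864 and 4479, and a different cluster held most of them in each library: 4305 in cluster 0 in sham, 3563 in cluster 15 at day 1, 2269 in cluster 2 at day 3, 5755 in cluster 10 at day 7 and 4361 in cluster 24 at day 14. A cluster mostly of 1 library may be that library and not a type, and this touches every microglia-like comparison below.

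At day 14 the ligands were read mainly in microglia-like and monocyte/macrophage-like cells, Cxcl12 in endothelial-like cells, and Cxcr3 and Cxcr6 in T or NK cell-like cells. Levels are given as CPM, the UMI count of the gene per 1000000 UMIs of the class in that library. Over all kept cells at day 14, 8 of the 9 genes were measured, meaning a mean of at least 10 CPM over the compared libraries. Of these, 7 were at least 2-fold higher than in sham and Cxcl12 was at least 2-fold lower, while Cxcr5 was below the limit. The background was 7.09% of 9565 genes higher and 19.0% lower, or 11.8% and 10.4% when scaled by TMM, the trimmed mean of M-values. The median log2 ratio of the 8 was 4.33 against −0.36 for all genes measured. A gene that reached 10 CPM only through the injured library had to differ. These counts, and those for single classes below, thus describe the genes and support nothing. Such totals also follow the number of cells of each class, which differed between libraries.

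**Figure D1:**
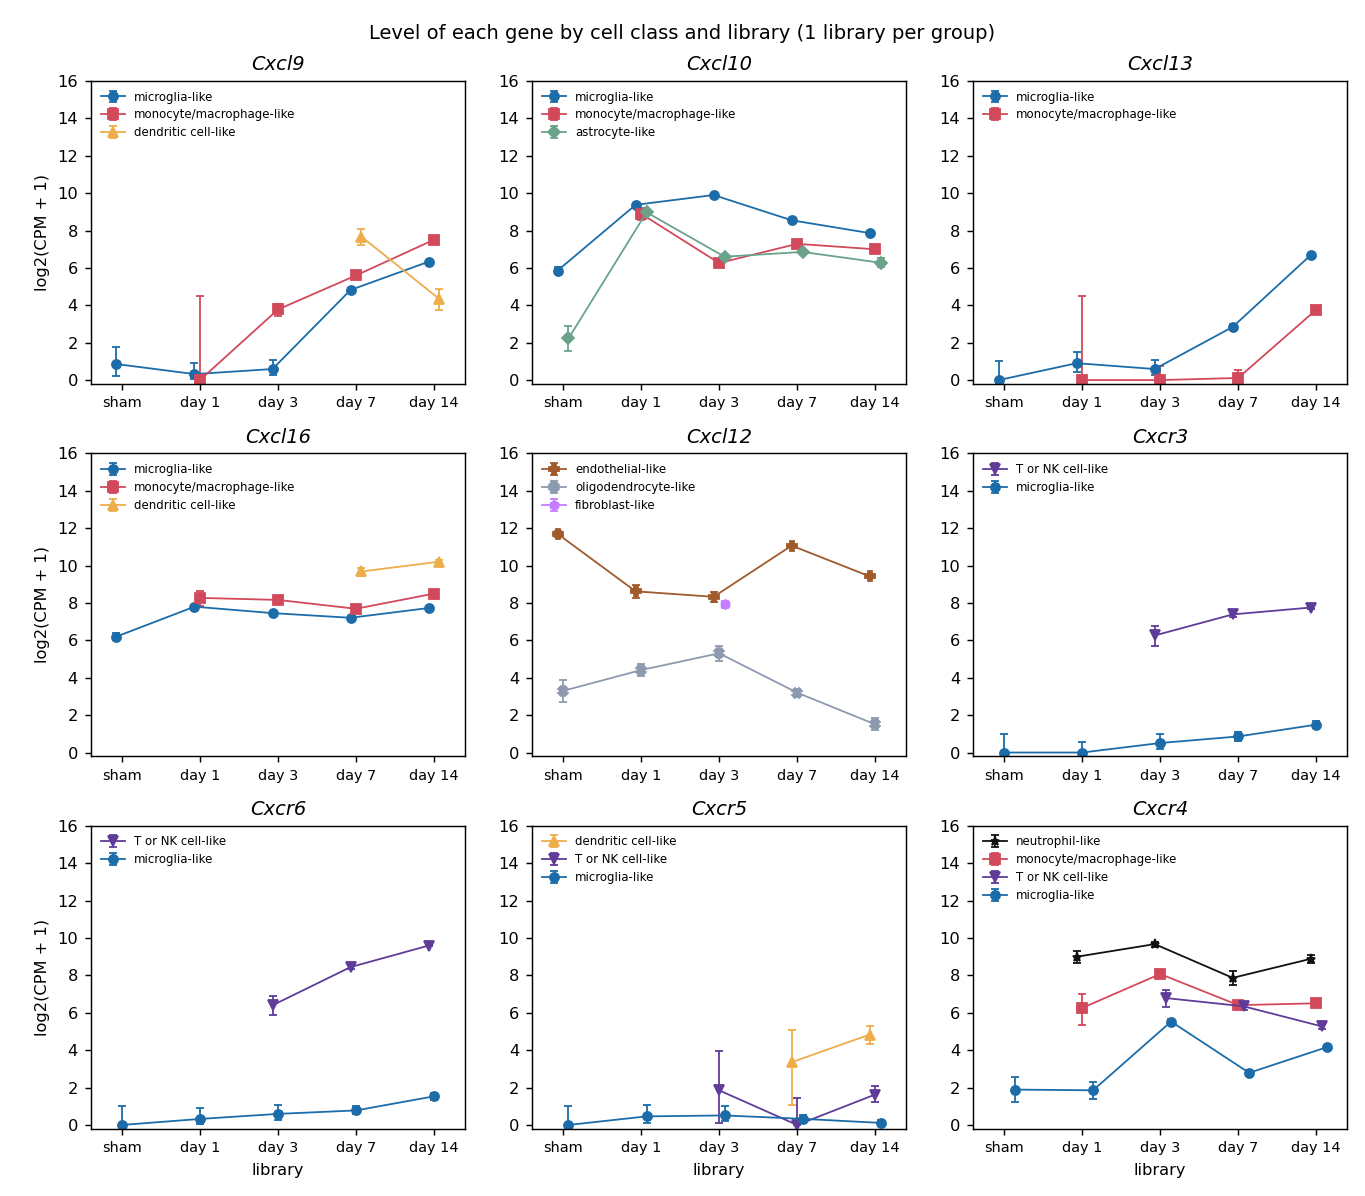
Level of each gene, as log2(CPM + 1), in chosen classes (at least 50 cells), in the 5 libraries from sham to day 14. Other classes that held a gene are not drawn, such as neutrophil-like and ependymal-like cells for Cxcl10. Points are 1 library each and bars are 95% Poisson intervals. Cxcl10 in microglia-like cells is highest at day 3, Cxcl9 and Cxcl13 stand well above sham at day 14, and Cxcl12 in endothelial-like cells is lowest at day 3.

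In microglia-like cells the measured members were all at least 2-fold above sham at each day: 2 of 2 at day 1 (Cxcl10 and Cxcl16), 3 of 3 at day 3 (with Cxcr4), 3 of 3 at day 7 (Cxcl9, Cxcl10 and Cxcl16) and 4 of 4 at day 14 (with Cxcl13), out of 9 genes. Cxcl16 at day 7 was at the limit, with a log2 ratio of 1.02 (0.84 to 1.20), and fell under 2-fold at 0.87 as a mean over cells and at 0.97 with a minimum of 1000 UMIs per cell. Cxcl9, Cxcl13 and Cxcr4 stood at 0.81, 0 and 2.71 CPM in sham, so they were measured only through the injured library. Their calls were fixed in advance, and the counts and the median of the members support nothing. Cxcr4 at day 14, at 17.0 CPM and 6.26-fold sham, was left out by the same limit. The background of genes at least 2-fold higher was 7.89% at day 1, 9.30% at day 3, 4.35% at day 7 and 5.30% at day 14, when 25.1% were at least 2-fold lower. With TMM the day 14 split was 13.8% higher and 7.69% lower. The median log2 ratio of all genes was −0.06, −0.28, −0.31 and −0.53 from day 1 to day 14, against 4.32 for the 4 members at day 14. The 20 monocyte/macrophage markers summed to 799, 1227, 882, 816 and 1193 CPM in these cells from sham to day 14, with 13, 18, 19, 19 and 20 of the 20 seen, and their part in the values was not tested.

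Cxcl10, the interferon-induced ligand of Cxcr3, was at its highest in microglia-like cells at day 3. In these cells it held 210, 5324, 11299, 14684 and 11786 UMIs from sham to day 14. This gave 56.9 (49.5 to 65.2), 664 (646 to 682), 955 (938 to 973), 374 (368 to 380) and 232 (228 to 236) CPM. The level stood lower at day 7 and day 14 than at day 1 and day 3, and all 4 injured libraries were above sham. The log2 ratio to sham was 3.54 on day 1 (3.34 to 3.75), 4.07 on day 3 (3.87 to 4.27), 2.72 on day 7 (2.52 to 2.92) and 2.03 on day 14 (1.83 to 2.23). Among microglia-like cells, 1.60%, 26.8%, 38.5%, 29.9% and 18.3% had a Cxcl10 UMI. After each cell was thinned to 500 UMIs, so that depth no longer differed, the shares were 1.20%, 14.6%, 20.8%, 10.2% and 4.73%. Of the classes with at least 200 cells, neural progenitor or neuroblast-like cells had the lowest thinned share on both days, at 1.31% at day 1 and 0% at day 14, with median depths of 1592 and 4844.5 UMIs. Day 3 had the highest share on both scales. Day 7 stood above day 1 before thinning and below it after thinning, and by CPM day 7 was below day 1.

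The UMIs of Cxcl10 were concentrated in few cells, and more so at day 14. Of the microglia-like cells, 151 held 50% of the Cxcl10 UMIs at day 1, 188 at day 3, 150 at day 7 and 45 at day 14. The single highest cell held 57, 130, 163 and 324 UMIs on those days. Cells with and without a Cxcl10 UMI differed 2-fold in few genes. At day 1 the antiviral enzyme Rsad2 led the genes higher in cells with Cxcl10 and stood at 74.3 CPM in the 1066 cells with a Cxcl10 UMI and at 23.6 CPM in the 2912 cells without. At day 3 the type I interferon Ifnb1 led, at 92.1 against 17.3 CPM, followed by the histone gene Hist1h2ap, at 948 against 340 CPM. At day 7 Ifnb1 had rank 4, behind globin genes, at 57.9 against 8.09 CPM. With 10 CPM added to both, 4 of 3450 genes were at least 2-fold higher in the cells with Cxcl10 at day 1, 5 of 3104 at day 3 and 10 of 2947 at day 7. The cells with Cxcl10 were deeper, with medians of 2032.5 against 1704 UMIs at day 1 and 7827 against 5720 at day 7. Globin genes led the list at day 7, with Hbb-bs at 249 against 25.1 CPM.

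Astrocyte-like cells held Cxcl10 at their highest level at day 1. Their levels were 3.68, 503 (488 to 519), 96.1, 115 and 76.7 CPM from sham to day 14, a day 1 log2 ratio of 7.10 (6.29 to 8.05) on 12 sham UMIs. Cxcl10 was the 1 member measured there at day 1, where 12.3% of genes were at least 2-fold higher than sham. At day 1 these cells held 39.5% of all 10277 Cxcl10 UMIs and microglia-like cells 51.8%. Of the 4568 astrocyte-like cells, 41 (0.898%) held 50% of the UMIs. Only 15.1% of the UMIs were in cells with 2 or more UMIs of 8 microglia genes, such as Tmem119, P2ry12 and C1qa, and such cells were 14.3% of the class. The 8 genes summed to 1505 CPM in sham astrocyte-like cells and 510 CPM at day 1. When the cells were clustered more finely, at Leiden resolution 2, 1457 of these cells formed a cluster led by Ptx3, Tm4sf1 and Lcn2. It held 3675 of the 4057 UMIs (90.6%) at 1181 (1144 to 1220) CPM. It carried 18 of 19 astrocyte markers but had no name, since Lcn2 is in the neutrophil list. The astrocyte-like class of resolution 2, with 3027 cells at day 1, stood at 75.3 CPM (log2 ratio 4.35). That class lacked this cluster and also a second unnamed cluster, which held 90 of the 4568 cells. A minimum of 1000 UMIs per cell gave 141 CPM. At day 3, 1 cell held 349 of the 954 UMIs.

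The astrocyte-like cells with Cxcl10 at day 1 differed more widely from those without than microglia-like cells did, at 62 of 3639 genes (1.70%) with at least a 2-fold higher level. The interferon-inducible GTPase Iigp1 stood at 414 CPM in the 552 cells with Cxcl10 and at 38.3 CPM in the 4016 cells without. Rsad2 stood at 182 against 19.1 CPM, the guanylate-binding protein Gbp2 at 383 against 53.8 CPM and the monocyte-attracting chemokine Ccl2 at 877 against 139 CPM. Median depth was 1916.5 and 1551.5 UMIs.

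Cxcl10 was also read in other classes. Monocyte/macrophage-like cells stood at 477, 75.8, 155 and 127 CPM from day 1 to day 14, the first on 81 cells. Neutrophil-like cells stood at 709.5 CPM at day 1 and 243 CPM at day 3. Ependymal-like cells stood at 1686 CPM at day 1, but 1 of their 83 cells held 265 of the 465 UMIs. T or NK cell-like cells stood at 167, 357 and 126 CPM from day 3 to day 14. Of their Cxcl10 UMIs, 99.2% at day 7 and 88.3% at day 14 lay in cells with 2 or more microglia gene UMIs, which were 97.1% and 75.2% of the class. A sub-cluster led by Hbb-bs and interferon-stimulated genes such as Ifit1 and Isg15 stood at 547 CPM. Over all classes, microglia-like cells held 84.3%, 51.8%, 84.6%, 73.3% and 70.0% of the Cxcl10 UMIs from sham to day 14, of totals of 249, 10277, 13357, 20030 and 16829 UMIs.

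Cxcl9, the second interferon-induced Cxcr3 ligand, appeared later than Cxcl10. Microglia-like cells held 3, 2, 6, 1071 and 4040 Cxcl9 UMIs from sham to day 14, or 0.81, 0.25, 0.51, 27.3 and 79.6 CPM. The first 3 libraries lay near 0 and the last 2 far above them. Day 14 was 97.8-fold sham (33.5 to 475), a ratio that rests on 3 sham UMIs. On the log2 scale day 7 stood 5.07 (3.52 to 7.35) and day 14 stood 6.61 (5.06 to 8.89) above sham. At day 14, 284 microglia-like cells (6.34%, or 1.61% after thinning) had a Cxcl9 UMI, and 25 of them held 50% of the UMIs. In neural progenitor or neuroblast-like cells the share was 1.60%, and 0% after thinning.

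Monocyte/macrophage-like cells held Cxcl9 at 0, 12.7, 47.5 and 181 (176 to 187) CPM from day 1 to day 14. The 16 microglia markers, all seen each day, summed to 13085, 12509, 29979.5 and 20616 CPM in these cells on the same days, and their part in the level was not tested. The day 14 level of Cxcl9 was 14.3-fold (11.3 to 18.3) the day 3 level, which rested on 70 UMIs, 36 of them in 1 cell. Between these 2 libraries 10.1% of genes were at least 2-fold higher at day 14 and 7.01% at least 2-fold lower. Of the members measured, Cxcl9 and Cxcr6 were higher, Cxcr4 was lower, and Cxcl10 and Cxcl16 were within 2-fold, at 1.67-fold and 1.27-fold. The class was made of a cluster led by Ccl8 and MHC class II genes (cluster 19, with 226, 242 and 1061 cells from day 3 to day 14) and a cluster with Pf4, Gpnmb and Arg1 (cluster 13, with 742, 714 and 578 cells). Cxcl9 stood at 65.6 CPM in cluster 19 and 0.22 CPM in cluster 13 at day 3, at 344 (313 to 378) and 11.7 (9.76 to 13.9) CPM at day 7, and at 273 (264 to 282) and 57.3 (52.8 to 62.2) CPM at day 14. Cluster 19 was higher on all 3 days. Within cluster 19 the day 14 level was not above that of day 7, while its cells made up a larger part of the class. Dendritic cell-like cells stood at 203 CPM at day 7 on 44 UMIs, 26 of them in 1 cell, and at 19.1 CPM at day 14. With a minimum of 1000 UMIs per cell, their day 14 level was 221 CPM. The class then held 447 cells in place of 208, and the monocyte/macrophage-like class 1209 in place of 1639. Cluster 19 carried 11 monocyte/macrophage markers and 7 dendritic cell markers, so the line between these 2 classes depended on the filter. At day 14 monocyte/macrophage-like cells held 49.8% and microglia-like cells 46.3% of the 8731 Cxcl9 UMIs.

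Cells with Cxcl9 carried other members of the group. Among day 14 microglia-like cells, Cxcl10 was seen in 36.3% of cells with Cxcl9 and 17.1% of those without, and Cxcl13 in 71 of the 284 cells with Cxcl9 and 6.32% of those without. The cells with Cxcl9 were deeper, with a median of 14682.5 against 9110 UMIs. Of 2622 genes, 34 (1.30%) were at least 2-fold higher in them, led by Cxcl13 at 568 against 55.6 CPM and the remaining Cxcr3 ligand Cxcl11 at 63.0 against 7.50 CPM. The MHC class II gene H2-Aa followed at 995 against 238 CPM, and the invariant chain Cd74 stood at 2938 against 806 CPM. In monocyte/macrophage-like cells, where depth was nearly equal (13438 and 13192 UMIs), Cxcl10 was seen in 35.9% of cells with Cxcl9 and 17.0% of those without. There Cxcl10 led at 522 against 66.9 CPM, followed by Cxcl11 at 73.1 against 2.07 CPM. Of the microglia-like cells, 89 held 10 or more Cxcl9 UMIs, 81 held 10 or more Cxcl13 UMIs, and 8 held both, which was 8.99% of the first and 9.88% of the second.

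Cxcl13, which attracts B cells, was read mainly in the day 14 library. Microglia-like cells held 0, 7, 6, 243 and 5203 UMIs from sham to day 14, or 0, 0.87, 0.51, 6.19 and 102 (99.7 to 105) CPM. Set against a floor of 3 UMIs in the sham class, day 7 was at least 7.61-fold higher and day 14 at least 126-fold higher. Microglia-like cells held 90.1% of the 5772 UMIs at day 14, and monocyte/macrophage-like cells stood at 12.6 CPM. Of the microglia-like cells, 336 of 4479 had a Cxcl13 UMI at day 14 and 0.784% at day 7. After thinning the shares were 1.67% and 0.153%, and 0% in astrocyte-like cells at day 14.

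Few cells made up this level. At day 14, 12 microglia-like cells (0.268%) held 50% of the UMIs, the highest held 436, and the 81 cells with 10 or more UMIs held 88.4%. The cells with Cxcl13 had a median of 14709 UMIs and the others 9107. Of 2621 genes, 26 (0.992%) were at least 2-fold higher in them, led by Cxcl9 at 247 against 59.4 CPM, Gbp2 at 136 against 41.1 CPM and the ubiquitin-like interferon-stimulated gene Isg15 at 431 against 145 CPM. Endothelial-like cells held 143 Cxcl13 UMIs at day 14. These lay in 8 cells, 85 UMIs in 1 of them, and all were in cells with 2 or more microglia gene UMIs. Such cells were 67 of the 75 in the class (89.3%), so this split says little about where the UMIs came from.

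**Figure D2:**
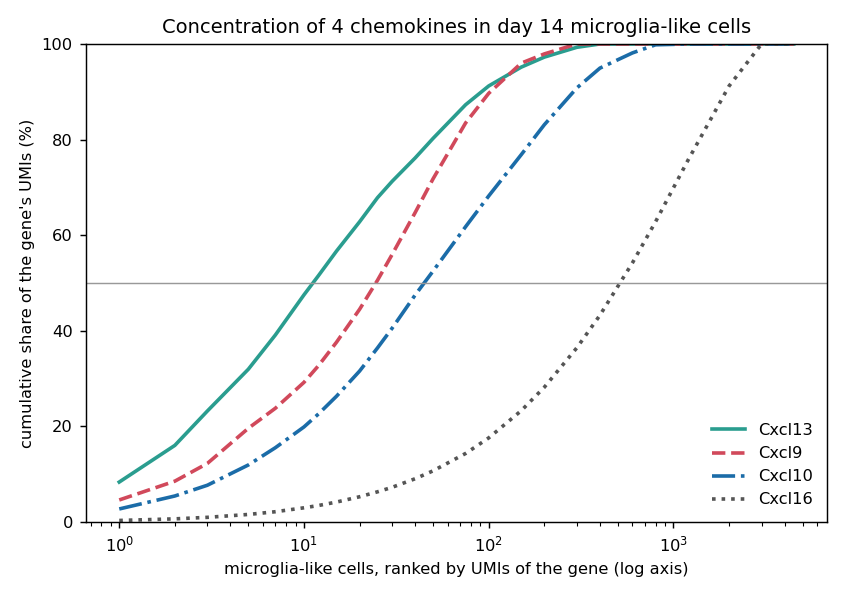
Cumulative share of each ligand's UMIs over the 4479 microglia-like cells of day 14, ranked from the cell with most UMIs (log axis); the grey line marks 50%. Cxcl13 reaches 50% within 12 cells, Cxcl9 within 25, Cxcl10 within 45 and Cxcl16 within 516.

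Cxcl16, the Cxcr6 ligand, was spread over many cells and was already present in sham. Microglia-like cells held 268, 1784, 2068, 5768 and 10731 UMIs, or 72.6, 222, 175, 147 and 211 CPM from sham to day 14. The log2 ratios to sham were 1.61, 1.27, 1.02 and 1.54, a narrower range than for the other ligands. At day 14, 65.7% of microglia-like cells had a Cxcl16 UMI (8.53% after thinning), against 6.83% of astrocyte-like cells (0.360% after thinning). In all, 516 microglia-like cells held 50% of the UMIs, and the highest cell held 37. Monocyte/macrophage-like cells stood above them on every injured day, with intervals that overlapped at day 1, at 308 (231 to 403), 286 (272 to 301), 206 (197 to 214) and 362 (354 to 370) CPM. Of the classes with at least 50 cells, dendritic cell-like cells stood highest at day 7 and day 14, at 822 (706 to 952.5) CPM at day 7 on 57 cells and 1185 (1127 to 1245) CPM at day 14 on 208 cells. In them 87.5% of cells had a Cxcl16 UMI at day 14, and 39.9% after thinning. By cell number, microglia-like cells held 49.4% of the 21724 UMIs at day 14, monocyte/macrophage-like cells 39.9% and dendritic cell-like cells 7.13%. With a minimum of 1000 UMIs per cell, the dendritic cell-like class took in a second cluster with MHC class II genes and Cd209a and grew to 447 cells at day 14, with Cxcl16 at 610 CPM and Cxcl9 at 221 CPM.

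**Figure D3:**
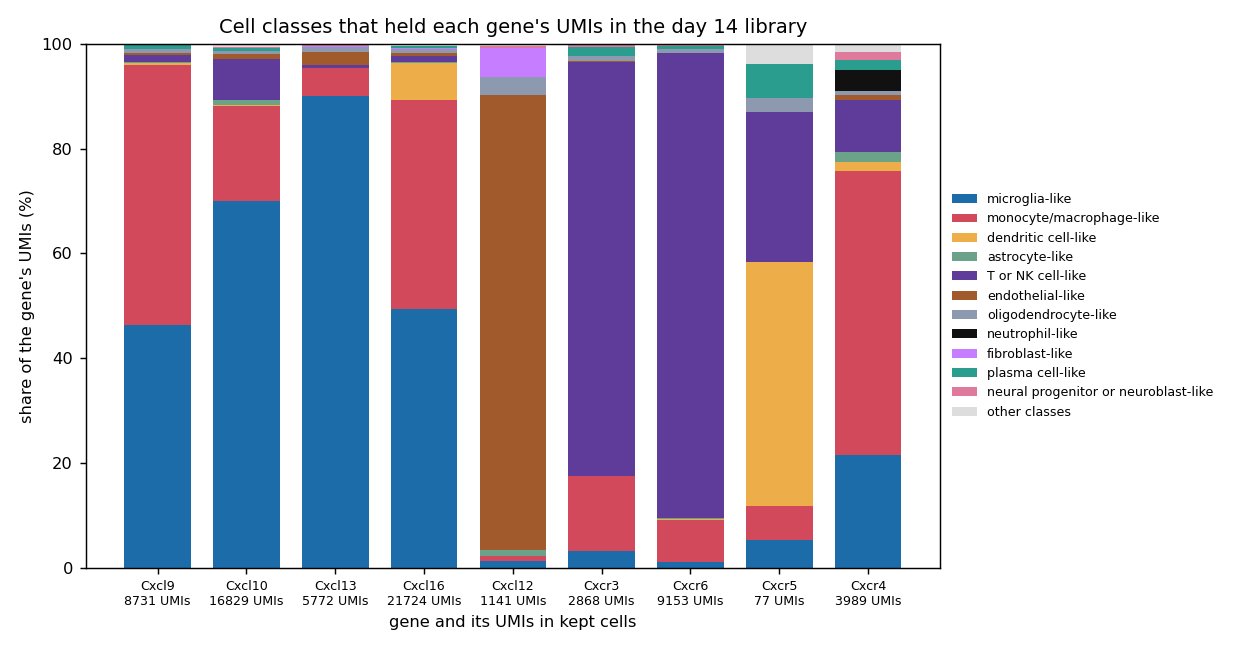
Share of each gene's UMIs in kept cells of the day 14 library by cell class, with the gene's total UMIs under its name. Microglia-like and monocyte/macrophage-like cells fill most of the bars of Cxcl9, Cxcl10, Cxcl13 and Cxcl16, endothelial-like cells that of Cxcl12, and T or NK cell-like cells those of Cxcr3 and Cxcr6.

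Cxcr3, the receptor of Cxcl9 and Cxcl10, had 0 UMIs in the sham and day 1 libraries, where T or NK cell-like cells numbered 16 and 32. In T or NK cell-like cells it stood at 75.7 (50.7 to 109) CPM at day 3 on 29 UMIs, 167 (150 to 185) at day 7 on 359 UMIs and 215 (206.5 to 224) at day 14 on 2267 UMIs. The 3 intervals do not overlap, and the day 14 level was 2.84-fold (1.97 to 4.26) that of day 3. T or NK cell-like cells held 79.0% of the 2868 Cxcr3 UMIs at day 14. A Cxcr3 UMI was seen in 17.0%, 50.4% and 58.1% of them from day 3 to day 14, and in 2.84%, 7.78% and 11.2% after thinning. Astrocyte-like cells at day 14 stood at 0.719%, and at 0% after thinning, with median depths of 3574.5 UMIs against 4405.5 in T or NK cell-like cells.

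Cxcr6, the receptor of Cxcl16, differed more between days. T or NK cell-like cells held it at 83.6 (57.2 to 118) CPM at day 3 on 32 UMIs, 348 (323 to 373) at day 7 on 748 UMIs and 772 (756 to 789) at day 14 on 8133 UMIs. The day 14 level was 9.24-fold (6.54 to 13.5) that of day 3 and 2.22-fold (2.06 to 2.40) that of day 7. Between day 3 and day 14, 14.2% of genes in these cells were at least 2-fold higher and 9.34% lower. Of the 5 members measured, Cxcr3, Cxcr6 and Cxcl16 were in the first group, Cxcr4 in the second, and Cxcl10 within 2-fold. Cxcl16 there was 10.4 and 21.0 CPM, on 4 UMIs at day 3, a ratio of 2.01-fold (0.774 to 7.44), and 210 of its 221 day 14 UMIs lay in cells with microglia gene UMIs. The class held 88.9% of the 9153 Cxcr6 UMIs at day 14, and 82.4% of its cells had one (32.8% after thinning). At day 3 and day 7 the shares were 17.0% and 65.1%, and 2.84% and 15.01% after thinning. Of the classes with at least 200 cells, oligodendrocyte-like cells had the lowest thinned share at day 14, at 0.147%. The 8 microglia genes summed to 1220, 2887 and 2685 CPM in T or NK cell-like cells from day 3 to day 14, and the 19 astrocyte markers to 682, 1321 and 140 CPM. Their part in the receptor levels was not tested.

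The T or NK cell-like cells of day 14 fell into 12 sub-clusters with unlike receptor levels, of which the 11 with at least 20 cells are compared here. A gamma-delta T cell or innate lymphocyte-like sub-cluster of 203 cells, led by Trdc, Tcrg-C1 and Cd163l1, had the highest Cxcr6, at 1732 (1647 to 1820) CPM, and the lowest Cxcr3, at 81.0 (63.5 to 102) CPM, an interval that overlaps that of an unnamed sub-cluster led by C1qa at 89.1 CPM. Of its cells 96.6% had a Cxcr6 UMI, and 64.5% after thinning. An unnamed sub-cluster of 421 cells led by Cd40lg, the ligand by which helper T cells activate B cells, had the highest Cxcr3, at 346 (319 to 375) CPM, with Cxcr6 at 974 CPM. Cxcr3 was among the 10 leading genes of that sub-cluster, although it was left out of the clustering. CD8 T cell-like cells (324) stood at 801 CPM of Cxcr6 and 278 CPM of Cxcr3. CD4 T cell-like cells (128), led by the regulatory T cell factor Foxp3, stood at 529 and 201 CPM. NK cell-like cells (80) stood at 260 and 181 CPM. A sub-cluster of 32 cells led by Ccr7 and S1pr1, receptors of recirculating T cells, had the lowest Cxcr6, at 60.5 (26.1 to 119) CPM, and Cxcr3 at 227 (153 to 324) CPM. The same sub-cluster held 83 of the 141 T or NK cell-like cells at day 3, with Cxcr6 at 94.4 and Cxcr3 at 82.6 CPM, and the 23 NK cell-like cells of day 3 had 0 UMIs of both. At day 7, 322 of 373 cells fell into a sub-cluster led by ribosomal RNA and astrocyte genes such as Clu and Slc1a2, with Cxcr6 at 397 and Cxcr3 at 190 CPM. The make-up of the class thus differed between days, and whether the differences by day hold within 1 sub-cluster was not tested.

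**Figure D4:**
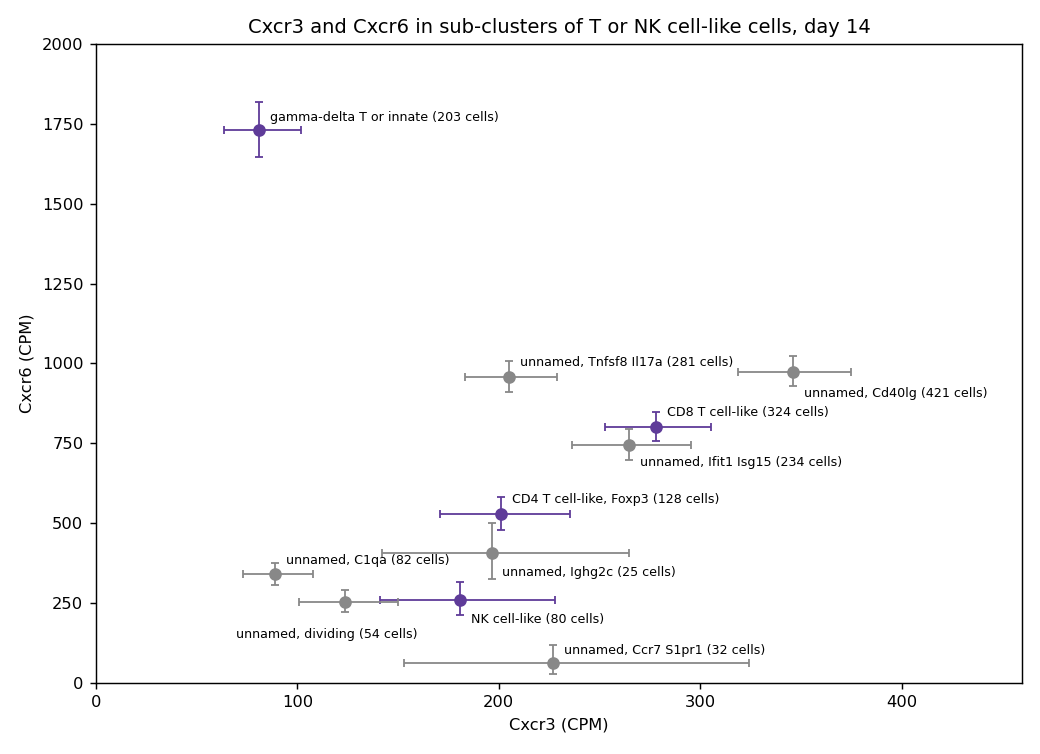
Cxcr6 against Cxcr3, both in CPM, in the 11 sub-clusters of T or NK cell-like cells with at least 20 cells at day 14; 1 sub-cluster of 4 cells is not shown. Purple points are named sub-clusters, grey points unnamed ones with their leading genes, and bars are 95% Poisson intervals. The gamma-delta T cell or innate lymphocyte-like sub-cluster stands apart at 1732 CPM of Cxcr6 and 81.0 CPM of Cxcr3.

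The 2 receptors were seen together in many cells. At day 14, Cxcr6 was seen in 85.5% of T or NK cell-like cells with a Cxcr3 UMI and in 78.0% of those without, with median depths of 4720.5 and 3979 UMIs. At day 7 the shares were 75.5% and 54.6%, with median depths of 5625 and 4901 UMIs. At day 3, 6 of 141 cells held both. Cells with a Cxcr6 UMI at day 14 had more Trdc, the constant region of the T cell receptor delta chain, at 269 against 28.2 CPM, and more of the cytokine Il17a, at 224 against 34.8 CPM. These were among 26 of 3073 genes (0.846%) at least 2-fold higher, a list led by globin genes. For Cxcr3, 0 of 3048 genes were at least 2-fold higher in the cells with a UMI.

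Both receptors were also read in monocyte/macrophage-like cells at day 14, Cxcr6 at 31.0 CPM on 742 UMIs and Cxcr3 at 17.1 CPM on 409 UMIs. For Cxcr6 this was at least 56.8-fold higher than at day 3, which had 0 UMIs and was set to 3. Of the Cxcr6 UMIs, 708 (95.4%) lay in 192 cells with 2 or more UMIs of 6 T cell receptor complex genes (Cd3d, Cd3e, Cd3g, Trac, Trbc1 and Trbc2), and the other cells stood at 1.66 CPM. Of the Cxcr3 UMIs, 240 (58.7%) lay in those cells, and the others stood at 8.27 CPM. All 6 genes were seen in monocyte/macrophage-like cells on every injured day and summed to 46.5, 7.81, 10.6 and 276 CPM. Under 4 other choices of cells (a minimum of 1000 UMIs, doublets kept, at most 10% mitochondrial UMIs, Leiden resolution 2), Cxcr6 in this class was 4.07 to 4.92 CPM.

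Cxcr5, the receptor of Cxcl13, was rare in every library, with 0, 6, 14, 14 and 77 UMIs in all kept cells from sham to day 14. At day 14, 36 UMIs lay in dendritic cell-like cells, in 29 of 208 cells (13.9%, or 2.40% after thinning) at 27.5 (19.3 to 38.1) CPM. T or NK cell-like cells held 22 UMIs at 2.09 CPM and microglia-like cells 4. The dendritic cell-like class carried Ccr7, the receptor by which dendritic cells enter lymph vessels, at 2702 CPM. Its cells with and without a Cxcr5 UMI stood at 2780 and 2685 CPM of Ccr7 and at 977 and 639 CPM of Ccl22, which attracts T cells. In the 29 B cell-like cells, summed over the 5 libraries (66243 UMIs), there were 7 UMIs of Cxcr5, 28 of Cxcr4 and 0 of Cxcr3 and Cxcr6. Relative to the UMIs of the class, Cxcr5 thus stood higher in these cells than in the dendritic cell-like cells of day 14, though on only 7 UMIs. At day 14 the 13 such cells held 4 of Cxcr5 and 13 of Cxcr4.

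Cxcl12, the Cxcr4 ligand, stood lower in endothelial-like cells after injury. These cells numbered 86, 80, 95, 507 and 75 and held 342, 67, 110, 10941 and 991 UMIs from sham to day 14. The levels were 3325 (2982 to 3697), 394 (305 to 500), 321 (264 to 387), 2148 (2108 to 2189) and 686 (644 to 730) CPM. Every injured library was below sham. Days 1 and 3 had overlapping intervals and were the lowest, day 7 was nearest to sham, and day 14 lay between. The ratios were 8.45-fold, 10.4-fold, 1.55-fold and 4.85-fold lower from day 1 to day 14, or log2 −3.08 (−3.48 to −2.70), −3.37 (−3.70 to −3.06), −0.63 and −2.28 (−2.46 to −2.10). In this class 18.9% of genes were at least 2-fold lower at day 1, 29.6% at day 3 and 24.1% at day 14, when 9.40% were at least 2-fold higher. With TMM the day 14 split was 13.6% lower and 18.6% higher. At day 14, 5 members were measured, and Cxcl10, Cxcl13, Cxcl16 and Cxcr4 were at least 2-fold higher on 0 or 1 sham UMIs. For Cxcr4 the log2 ratio was 1.19 (−1.39 to 6.54), and 0.72 as a mean over cells, which is under 2-fold. The 8 microglia genes summed to 14460 CPM in this class at day 14 against 7156 in sham and 1450 to 2109 on the other days.

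The class itself differed between libraries. The 18 endothelial markers, all seen in each library, summed to 31882, 26014, 18503, 31341 and 20411 CPM, and the pericyte and smooth muscle markers to 3160, 4248, 3174, 5464 and 3459 CPM. Per 1000 endothelial marker UMIs, Cxcl12 gave 104, 15.1, 17.3, 68.5 and 33.6 UMIs, with log2 ratios of −2.79, −2.59, −0.61 and −1.63, a measure added after seeing the data. The order of the libraries was nearly the same, with days 1 and 3 exchanged. The share of endothelial-like cells with a UMI was 75.6%, 32.5%, 34.7%, 71.8% and 77.3%, and 64.0%, 13.8%, 14.7%, 48.3% and 36.0% after thinning. Ackr3, which removes Cxcl12, stood at 136, 76.4, 37.9, 40.4 and 42.2 CPM in the same cells.

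**Figure D5:**
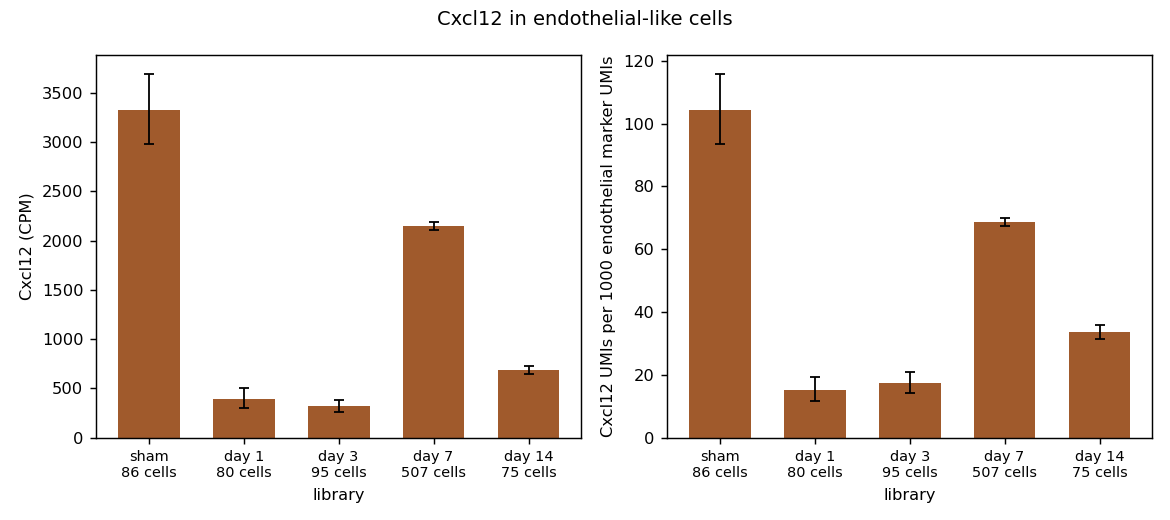
Cxcl12 in endothelial-like cells of each library, in CPM (left) and as UMIs per 1000 UMIs of 18 endothelial markers (right), with the number of cells under each bar and 95% Poisson intervals. On both scales sham is highest, followed by day 7 and then day 14, and days 1 and 3 are lowest.

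Endothelial-like cells held 88.4% of the Cxcl12 UMIs in sham, 23.3% at day 1, 20.4% at day 3, 94.8% at day 7 and 86.9% at day 14, of 387, 287, 539, 11546 and 1141 UMIs. At day 3 fibroblast-like cells, 73 in number, held 54.7% at 242 CPM. Oligodendrocyte-like cells stood at 8.83, 20.3, 38.6, 8.21 and 1.85 CPM on 20, 72, 49, 146 and 38 UMIs. In them Cxcl12 was the 1 member measured at day 3 and was at least 2-fold higher, where 10.1% of genes were.

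Cxcr4 was read in neutrophil-like, monocyte/macrophage-like, T or NK cell-like and other cells. Of the classes with at least 50 cells, neutrophil-like cells stood highest on every injured day, with 511 CPM on day 1 (403 to 638), 816 CPM on day 3 (747 to 890), 233 CPM on day 7 (177 to 300.4) and 473 CPM on day 14 (402 to 552). Monocyte/macrophage-like cells had 75.6 CPM on day 1 (40.2 to 129), 269 CPM on day 3 (255 to 283), 84.1 CPM on day 7 (79.0 to 89.4) and 90.0 CPM on day 14 (86.3 to 93.9). Day 3 was the highest library in both classes. In monocyte/macrophage-like cells day 14 was 2.98-fold lower than day 3, a log2 ratio of −1.58 (−1.67 to −1.48). Microglia-like cells stood at 2.71, 2.62, 45.2, 5.91 and 17.0 CPM from sham to day 14, and the day 3 level was 16.7-fold (9.01 to 35.0) that of sham on 10 sham UMIs. T or NK cell-like cells went the other way from their Cxcr3 and Cxcr6, at 110 (79.1 to 148), 80.4 (68.8 to 93.3) and 37.7 (34.1 to 41.6) CPM from day 3 to day 14. Their day 14 level was 2.91-fold lower than that of day 3, log2 −1.54 (−2.00 to −1.05). Neural progenitor or neuroblast-like cells stood at 21.5, 19.3, 30.0, 25.7 and 21.0 CPM, and the intervals of sham and day 14 (9.30 to 42.5 in sham) overlapped. Monocyte/macrophage-like cells held 51.5%, 58.7% and 54.1% of the Cxcr4 UMIs from day 3 to day 14, of 2872, 1727 and 3989 UMIs.

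Other genes of these pathways were read in lists, chosen with earlier results of these data known. A gene under 10 CPM in 1 of the 2 compared libraries was measured only through the other, which favoured a call. This applies to Ccl5, Ccl8, Ccr7 and Ackr1, and in reverse to Vegfa, so the list counts describe the genes and support nothing. Beside their counts at day 14 stand the shares of all genes, which in microglia-like cells were 5.30% higher and 25.1% lower (13.8% and 7.69% with TMM) and in endothelial-like cells 9.40% and 24.1%. Of 15 other lymphocyte-directed chemokines, 2 were measured in microglia-like cells at day 14 and both were at least 2-fold higher: Ccl5, which attracts T cells, at 486 CPM against 9.21 in sham, and Ccl8 at 25.6 against 0.27 CPM on 1 sham UMI. In monocyte/macrophage-like cells Ccl8 stood at 1078 CPM at day 14. In dendritic cell-like cells Ccl5 stood at 12285 CPM and Ccl22 at 699 CPM. Cxcl11 stood at 0, 5.73, 10.2, 4.89 and 12.6 CPM in microglia-like cells from sham to day 14. Over all kept cells, 6 of 14 other receptors and egress receptors were measured at day 14. Ccr7 was at least 2-fold higher, at 38.2 against 0.31 CPM. Those at least 2-fold lower included S1pr1, at 34.3 against 540 CPM, and Gpr183, at 93.3 against 222 CPM. Of all genes in kept cells 7.09% were higher and 19.0% lower. S1pr1 is also in the astrocyte marker list, and astrocyte-like cells were 40.3% of kept cells in sham and 2.41% at day 14. The part of class numbers in these totals was not tested. With TMM only S1pr1 was lower. Their median log2 ratio was −1.10, against −0.36 for all genes.

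Of 17 genes of the interferon axis, 15 were measured in microglia-like cells at day 14. Irf7, a transcription factor of the type I interferon response, was at least 2-fold higher, at 120 against 50.1 CPM. Rela, an NF-kB subunit, and Irf9, a transcription factor of the interferon response, were at least 2-fold lower, at 45.0 against 115 and 52.6 against 124 CPM, but not with TMM. The list median was −0.49, near the −0.53 of all genes, while Cxcl9 and Cxcl10 stood at 6.61 and 2.03. Ifnb1 stood at 0, 12.96, 49.7, 27.0 and 0.43 CPM in microglia-like cells from sham to day 14, highest at day 3 as Cxcl10 was. Ifng, the main inducer of Cxcl9, stood at 394, 338 and 94.3 CPM in T or NK cell-like cells from day 3 to day 14. These are levels within a class of 141, 373 and 1868 cells, whose make-up differed between days, and not totals of the library.

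Of 11 genes of the lymphotoxin and survival axis, 7 were measured in microglia-like cells at day 14. None was at least 2-fold higher, or 2 with TMM, and Tnf, at 78.9 against 203.5 CPM, and Map3k14 were at least 2-fold lower, or none with TMM. Of all genes in these cells 5.30% were higher and 25.1% lower, or 13.8% and 7.69% with TMM, so 2 of 7 lower is near the background. The list median was −0.61 against −0.53 for all genes. Ltb, a subunit of the lymphotoxin that induces Cxcl13 in lymphoid stroma, stood at 172, 820 and 1004 CPM in T or NK cell-like cells from day 3 to day 14, and Lta, the other subunit, at 0, 13.5 and 22.1 CPM. Of 9 scavenging receptors and processing enzymes, 6 were measured in endothelial-like cells at day 14. Ackr1 was at least 2-fold higher, at 29.1 against 9.72 CPM on 1 sham UMI. Ackr3 and the chemokine-cleaving peptidase Dpp4 were at least 2-fold lower, and the list median was −0.48 against −0.32 for all genes. In microglia-like cells 3 were measured and none passed 2-fold, or 1 with TMM. Of 7 genes of the hypoxia axis, 6 were measured in endothelial-like cells at day 14. The growth factor Vegfa was at least 2-fold lower there, at 2.77 against 77.8 CPM, on few UMIs in both libraries. In microglia-like cells Hif1a, at 221 against 90.5 CPM, and the glycolytic gene Pgk1, at 153 against 65.9 CPM, were at least 2-fold higher and Vegfa lower, at 3.41 against 41.5 CPM.

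Likeness of pattern was read as Pearson's r of log2(CPM + 1) over 48 sums of class and library, among 10269 genes. The points share libraries and depth, so the values only describe. The genes most like Cxcl9 were Hpse (0.88), H2-Ab1 (0.78) and H2-Eb1 (0.78), and those most like Cxcl10 were Runx1 (0.75), Rsad2 (0.72) and Nfkbiz (0.71). For Cxcl13 they were Apoc4, Cxcl9 and Cst7 (each 0.66), and for Cxcl16 Ifi30 (0.96), H2-DMa (0.87) and H2-DMb1 (0.86). For Cxcr3 they were Gstp3 (0.94), Sh2d2a (0.93) and Sit1 (0.93), and for Cxcr6 Actn2 (0.94), Gimap7 (0.94) and Cd2 (0.93). For Cxcl12 they were Adgra2 (0.87), C130074G19Rik (0.86) and Car4 (0.86), and for Cxcr4 Pstpip1 (0.84), Pim1 (0.81) and Bcl2l11 (0.80). Cxcr5, at 77 UMIs or fewer per library, was most like Gm10851 (0.85), Gm47662 (0.82) and Gm13546 (0.81).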

How the data were processed

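Per the file headers, the deposited matrices are whole UMI counts per gene and barcode made by the authors with Cell Ranger 4.0.0. STAR 2.5.37, Seurat 3.2.0, GRCm38 and mm10 also stand in the submitters' processing notes, with no role for each. Gene positions came from the GENCODE annotation of GRCm38. The members and lists were chosen with earlier results of these data known.

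Barcodes were kept with at least 500 UMIs, 200 genes and at most 20% mitochondrial UMIs, and Scrublet doublets were removed (3.16% to 8.52% per library). With scanpy 1.11.5, 2000 variable genes without the 9 members gave 30 principal components, 15 neighbours and Leiden clusters at resolution 1. Clusters were named from 18 marker lists: at least 3 markers, each in at least 10% of cells and 2-fold above the other cells with 10 CPM added, and no stronger list among the top 10 genes. UMIs were summed per class and library. Ratios needed 50 cells in both libraries and used a floor of 3 UMIs for 0. Intervals are exact (Poisson, Clopper-Pearson or conditional binomial) at 95%. Statistics were tested on simulated data. All 9 members are named. List genes named are those of at least 10 CPM with the largest ratios (up to 3 a list), and others were chosen after their values were seen, as were all genes of member-positive cells and the splits by T cell receptor and microglia genes. Alternatives were a minimum of 1000 UMIs, doublets kept, at most 10% mitochondrial UMIs, resolution 2, TMM scaling, means over cells and a mean of at least 50 CPM.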

Additional observations from a re-analysis of the deposited data

Results flagged for a closer look

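Cxcl12 stood apart in opposite directions soon after injury in the 2 classes where it was measured against sham. In oligodendrocyte-like cells its log2 ratio to sham was 1.20 (0.47 to 1.99) at day 1 and 2.13 (1.35 to 2.96) at day 3, on 20 sham UMIs. In endothelial-like cells it was −3.08 at day 1 and −3.37 at day 3. In astrocyte-like cells, where Cxcl12 was below the limit of 10 CPM, the ratio was also higher at day 1, on 11 sham UMIs. It was 1.66 (0.75 to 2.72) at day 1 and 0.91 (−0.02 to 1.98) at day 3, so a higher level was not particular to oligodendrocyte-like cells. With 1 library per group the difference between the classes was not tested. The 8 microglia genes summed to 909, 450 and 890 CPM in oligodendrocyte-like cells in sham, at day 1 and at day 3. Microglia-like cells held Cxcl12 at only 2.98, 0.37 and 0.51 CPM in these libraries, so these sums cannot speak to Cxcl12 RNA from other classes. Endothelial and fibroblast markers were not summed in oligodendrocyte-like cells, and their part was not tested.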

How the results depend on the processing

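No paired analysis was possible because each group is 1 library. Alternatives were read for a chosen set of genes and classes, which left out Cxcl10, Cxcl13, Cxcl16 and Cxcr4 in endothelial-like cells. In that set no ratio that lay 2-fold or more from sham turned its direction. Of 1101 alternative values, 114 moved by over 1.5 times, 47 of them with a minimum of 1000 UMIs and 20 at resolution 2. The T or NK cell-like share of day 14 stayed within its interval. Cxcl10 in microglia-like cells at day 3 had a log2 ratio of 4.40 with TMM. Cxcl12 in endothelial-like cells at day 14 had log2 ratios of −1.94 with doublets kept, −1.99 at resolution 2, −1.90 as a mean over cells, −1.83 with TMM and −1.63 per endothelial marker UMI. With a minimum of 1000 UMIs, sham had under 50 such cells and gave no ratio. For levels at day 14, Cxcl13 in microglia-like cells was 110 CPM with doublets kept, 115 with at most 10% mitochondrial UMIs, 113 at resolution 2 and 79.7 as a mean over cells. Cxcl9 in monocyte/macrophage-like cells was 162 CPM with at most 10% mitochondrial UMIs, 167 at resolution 2 and 218 as a mean over cells. In T or NK cell-like cells Cxcr3 was 193 and 242 CPM, and Cxcr6 682 and 900.3 CPM, with doublets kept and as a mean over cells. Cxcl16 in dendritic cell-like cells was 610 CPM with a minimum of 1000 UMIs, and the class had no name with doublets kept or at most 10% mitochondrial UMIs. Cxcr4 in monocyte/macrophage-like cells at day 3 was 301 CPM as a mean over cells. At resolution 2 this class held 265 cells at day 7 in place of 956, with Cxcl9 at 292 and Cxcl10 at 338 CPM. The causes were not tested. Depth limits sham most: 3 UMIs were worth 0.81 CPM in its microglia-like cells.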
